A study of Macaca fascicularis with 28 samples.

Results

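The top fraction of circumvallate (CV) taste buds was compared with lingual epithelium (LE) collected beside CV papillae, in 8 of the 28 samples of the series. These samples were picked by their labels, with earlier results of these data known, and they are the 4 top fractions and the 4 LE samples numbered 7 to 10. Taste buds and surface epithelium had been cut from tongue sections of cynomolgus macaques (Macaca fascicularis) by laser capture microdissection, and the amplified RNA was hybridised to an Affymetrix array designed for the rhesus macaque. The top samples came from animals 7, 8, 9 and 10, which were 1 male (animal 7) and 3 females, each 3 years old. LE samples 7 and 8 came from females, animals 1 and 5, aged 4 and 3 years, and LE samples 9 and 10 from males, animals 3 and 4, aged 3.8 and 2.6 years. The labels give no treatment, strain or altered gene for any animal, and the animals had been killed for other purposes. Sections of each animal were pooled, so a sample is an average over many buds of 1 animal. No animal gave both tissues, and the top fractions were run in a second array set while the LE samples belong to the first. Tissue, animal and array set therefore cannot be told apart in this comparison. Values of whole CV taste buds, which share the array set and the animals of the LE samples, and of the bottom fraction, which shares the array set and the animals of the top fraction, are given beside the results for that reason.

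A taste bud is a cluster of elongated cells that reach towards a pore at the surface of the papilla. Type II cells carry the receptors for bitter, sweet and umami compounds and signal through a G protein, a phospholipase and the cation channel TRPM5, type III cells respond to acid and form synapses, type I cells resemble glia, and new cells arise near the base. The epithelium around the papillae is stratified: its keratinocytes move outwards from a dividing basal layer, fill with keratins, cross-link an envelope of proteins under the membrane and are shed. Since mature taste cells are elongated, parts of one cell can fall into both fractions.

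The tested taste receptors, the signalling genes of type II cells and most tested genes of vesicle release were above LE in the top fraction, while most tested genes of the cornified envelope, surface proteases and the interleukin 1 family were below. Values are the deposited intensities in units, and 21499 of 52024 probe sets reached 25 units in 4 or more of the 8 samples and were tested. A log2 change is the difference between the group means of log2 intensities, top minus LE, given ± its standard error from limma, and adjusted p values are Benjamini-Hochberg over all tested probe sets. Where the adjusted p was 0.05 or less and the groups differed by 5-fold or more, 3095 probe sets (14.4% of those tested) were called higher in the top fraction and 1644 (7.65%) were called lower. By the adjusted p alone, which judges single genes and list members here, 33.0% of tested probe sets lay above LE and 22.5% below it, so a share of a gene list near those levels says little about the list. Among the called, 2998 higher and 1600 lower probe sets had groups that did not overlap, where 30.5% and 21.8% of all tested probe sets did so. The minimum of 25 units matters for these counts: 1120 of the probe sets called higher passed it only through the top samples, with every top sample and no LE sample at 25 units or more, and 379 called lower passed only through LE. Such probe sets had to differ in that direction. By the names of the annotation, all 7 tested bitter receptors passed only through the top samples. So did 5 of 7 type II genes and 4 of 9 vesicle release genes. Only through LE passed 2 of 12 cornified envelope genes, 6 of 27 surface protease and inhibitor genes and 6 of 11 interleukin 1 family genes. The direction of any other gene or list member that passed in this way was fixed too. With the 6 LE samples beside fungiform papillae added to the 4, 2826 were called higher and 1065 lower.

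**Figure D1:**
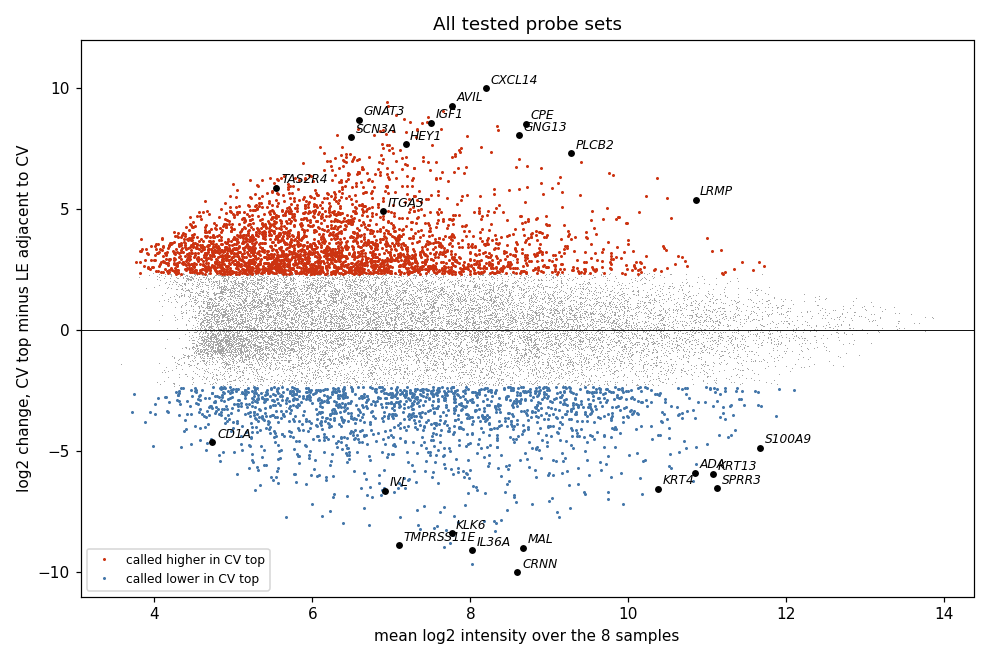
Log2 change between the CV top fraction and LE adjacent to CV (y axis) against the mean log2 intensity over the 8 samples (x axis) for each of the 21499 tested probe sets. Coloured points are the 3095 called higher and the 1644 called lower, grey points the rest, and black points with names are genes described in the text, among which CXCL14 lies highest and CRNN lowest.

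Both tissues carried defining markers of their labels: GNAT3, PLCB2 and KRT20 were brighter in each top sample than in any LE sample, and KRT4, KRT13 and CRNN brighter in each LE sample than in any top sample. KRT18, another taste bud marker, was dim in both by the probe set of the array annotation, at 10.2 to 25.1 and 8.14 to 13.6 units. With names from the study's own gene list added, all 5 listed keratins of simple epithelium, KRT18 among them, were tested and higher. That list held genes the study had found above LE. Within the top fraction the arrays were more alike than within LE. Correlations of log2 intensities lay between 0.960 and 0.977 among top samples, between 0.893 and 0.949 among LE samples and between 0.744 and 0.844 across the groups. LE replicate 7 stood apart from the other LE samples on the second principal component of the 8 samples (129.2 against -71.2 to -37.8). The median of the tested values was 0.45 log2 higher in the top fraction than in LE. With every array centred on its median, 2204 probe sets (10.3%) were called higher and 2323 (10.8%) lower, so that 48.7% of calls were higher instead of 65.3%. By the adjusted p alone 24.5% were then higher and 31.2% lower. A direction that turned or was lost with centred arrays is named beside the gene.

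Among the 15 genes with the largest increases were signalling, secreted and structural proteins. A probe set that the study names CXCL14, a chemokine gene, held 8461, 9885, 9026 and 9949 units in top samples 1 to 4 and 11.6, 5.47, 23 and 4.88 in LE samples 7 to 10. It was at least 372-fold higher (log2 change 9.98 ± 0.47, adjusted p = 6.88e-07), but the annotation of the array assigns the same probe set to TPM2, a tropomyosin gene. Folds compare geometric means with values under 25 units raised to 25, and "at least" marks a fold whose dimmer group alone had raised values, which makes it a lower bound for the ratio of geometric means. Another probe set of TPM2, named so by the annotation, was at least 130-fold higher, at 1466 to 5123 units in the top fraction. AVIL, which encodes the actin-binding protein advillin, was at 5688, 5609, 4719 and 5728 units in the top fraction and at 7.39, 13.8, 7.56 and 7.69 in LE, at least 217-fold higher. TGFB2, a growth factor gene, was at least 184-fold higher, and IGF1, the insulin-like growth factor, at least 141-fold. The peptidase gene MMP7 was at least 149-fold higher by its brighter probe set (2938, 4143, 3891 and 4083 against 15.9, 6.78, 8.59 and 5.35 units) and at least 45.6-fold by a dimmer one. GSTO1, a glutathione transferase, CMTM2 of the chemokine-like factor family and ECRG4, which encodes a secreted precursor protein, were at least 154-fold, at least 140-fold and at least 139-fold higher. In each of these genes all 4 top samples lay above all 4 LE samples, which was a condition for entering the 15. AVIL, IGF1, GSTO1, CMTM2, ECRG4 and the probe set named CXCL14 passed the minimum only through the top samples, so their direction was fixed.

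Bitter receptors, the TAS2R family of G protein-coupled receptors, were measured above LE wherever they were bright enough to judge. The annotation of the array names 17 of 25 listed receptors. Of these, 7 passed the minimum of 25 units, all of them only through the top samples, so their direction was fixed by the filter. Without the filter 17 could be tested, of which 9 were higher and none lower, with a median log2 change of 1.87 against 0.30 over all probe sets that passed the filter. TAS2R4 was at 309, 389, 421 and 322 units in the top fraction and 7.68, 4.46, 5.92 and 6.8 in LE (at least 14.3-fold higher, log2 change 5.87 ± 0.26, adjusted p = 4.98e-07). TAS2R8, at 253, 188, 150 and 158 units, and TAS2R10, at 255, 418, 369 and 124 units, were at least 7.33-fold and at least 10.6-fold higher. The lowest top value of either was above every LE value, and TAS2R10 was dimmest in top sample 4.

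One bright probe set is named TAS2R14 by the study alone. It was at 2954, 3731, 2786 and 2973 units in the top fraction and 6.56, 4.64, 4.35 and 4.8 in LE, at least 124-fold higher, whereas the probe set that the annotation gives to TAS2R14 was at 31.9, 48.2, 21 and 34.1 units and was not tested. The study likewise names probe sets of TAS2R50 (at least 5.28-fold higher) and TAS2R43 (at least 4.75-fold), and, by the older symbols TAS2R48 and TAS2R49, of TAS2R19 (at least 8.19-fold) and TAS2R20 (at least 1.82-fold). The study took its names from genes it had found above LE in these samples, which makes them no independent evidence of a direction. TAS2R13, TAS2R16 and TAS2R39 were at least 3.01-fold, at least 3.35-fold and at least 1.74-fold higher. TAS2R13 spread widely within the fraction, 135, 161, 27.6 and 53.4 units, and TAS2R42 was at 38, 32.1, 35.2 and 80 against 24.4, 9.46, 5.82 and 14.3 units, with an adjusted p of 0.00881 and 0.0459 with centred arrays. TAS2R7 reached 30.7, 43.4, 59.8 and 12.6 units and was too dim to test, as were TAS2R1, TAS2R3, TAS2R5, TAS2R9, TAS2R38, TAS2R40, TAS2R41 and TAS2R60, whose highest top value was 21.2 units.

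For sweet, umami and sour taste, 4 of 6 listed receptor genes are named on the array. TAS1R1, the umami receptor subunit, was at 148, 208, 382 and 141 units in top samples and 38.8, 20.6, 19.1 and 30.3 in LE (at least 6.89-fold higher, log2 change 2.95 ± 0.39, adjusted p = 0.000238). PKD2L1, a channel of sour-sensing type III cells, was at 476, 266, 321 and 364 units and was at least 11.5-fold higher. The sweet receptor subunit TAS1R2 was at 35.2, 62.6, 34.5 and 24.4 units in the top fraction and 17.9, 8.42, 9.27 and 11.2 in LE, with all top values above all LE values, but too few samples reached 25 units for a test. OTOP1, the proton channel of acid sensing, was at 12.4 to 22 units in the top fraction and 11.7 to 17.6 in LE and was not tested.

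The genes that carry the signal from these receptors were also higher than in LE. Of 9 type II transduction genes named by the annotation 7 were tested, and 5 of these passed the minimum only through the top fraction. GNAT3, the gustducin alpha subunit, was at 2338, 2404, 1718 and 1544 units in the top fraction and 4.83, 4.12, 4.75 and 5.32 in LE, at least 78.6-fold higher (log2 change 8.70 ± 0.25, adjusted p = 1.4e-07). Its partner subunits GNB3 and GNG13 were at least 161-fold and at least 227-fold higher. The phospholipase PLCB2 was at 7693, 7407, 7656 and 8423 units in the top fraction and 22.1, 54.9, 56.4 and 83.5 in LE, at least 154-fold higher. In 3 of 4 LE samples it was above 25 units. TRPM5, the channel that depolarises type II cells, was at 681, 690, 485 and 443 against 51.3, 41.1, 27.6 and 28.3 units, 15.7-fold higher, and it was above 25 units in every LE sample, so that it would have been tested whatever the top samples held.

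CALHM1 and CALHM3 form the channel through which type II cells release ATP. CALHM3 was at 2334, 1566, 1356 and 2803 units in the top fraction and at least 77.2-fold higher, and CALHM1 at 56.8, 45.8, 70.4 and 113 units and at least 2.7-fold higher. GNA14, another G protein alpha subunit, and PDE2A, a phosphodiesterase, were at least 6.84-fold and at least 11.6-fold higher. ITPR3, the calcium release channel of type II cells, gave 2 answers: the probe set named by the study was at 321, 664, 763 and 133 units against 33.9, 35.2, 29.6 and 30.9 in LE (11.9-fold higher, log2 change 3.57 ± 0.51), and that of the annotation was at 12.7 to 14.6 units in the top fraction and 9.95 to 20.7 in LE and was not tested. PDE1A was likewise at 8.1 to 23.2 and 7.3 to 17.8 units. LRMP, whose protein binds inositol trisphosphate receptors and marks type II and tuft cells, was at 12955, 11218, 11448 and 12365 units in the top fraction and 135, 129, 398 and 941 in LE, 42.2-fold higher. DCLK1, a tuft cell kinase, was at least 44.1-fold higher, but the microvillar protein genes VIL1 and EZR were lower, by log2 changes of -4.62 ± 0.49 and -0.84 ± 0.23.

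**Figure D2:**
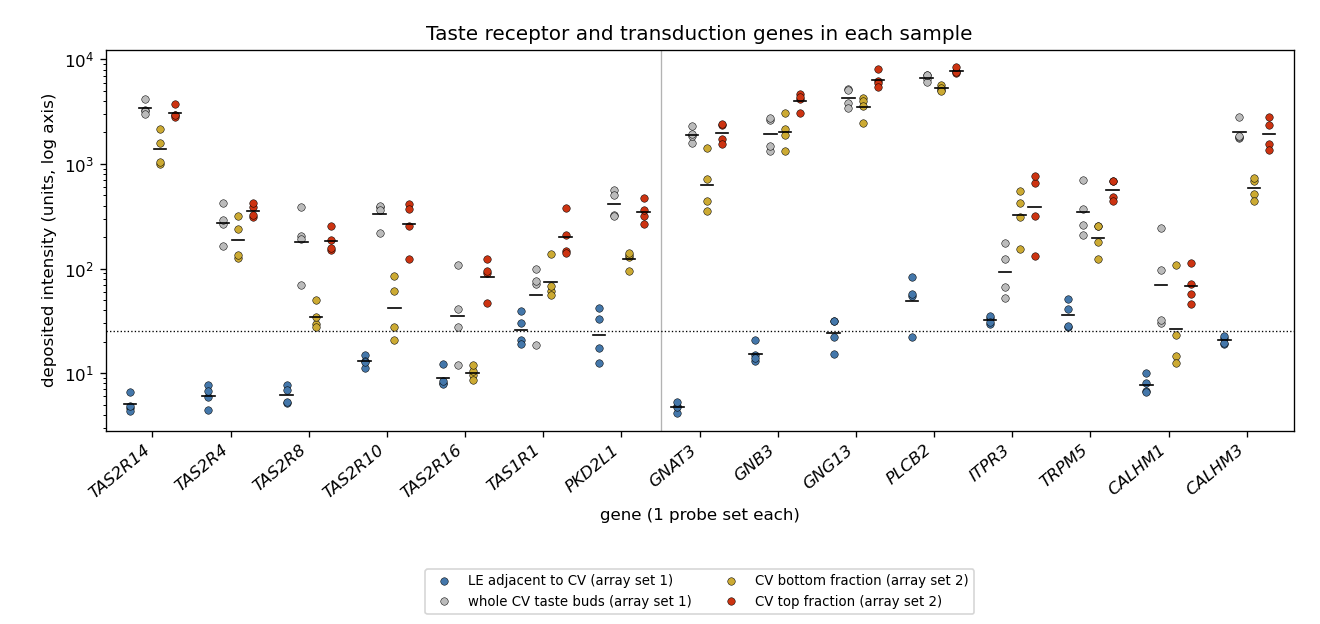
Deposited intensity (log axis, units) of taste receptor genes (left of the grey line) and transduction genes (right of it) in each of 4 samples of LE adjacent to CV papillae, whole CV taste buds, the bottom and the top fraction of CV taste buds. Where several probe sets were described, the one brightest in the top fraction is drawn. For TAS2R14 and ITPR3 this is the probe set named by the study. Points are samples, short lines geometric means and the dotted line 25 units. All top values lie above all LE values in each of the 15 genes as drawn, but the annotated ITPR3 probe set overlapped.

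Whole CV taste buds were compared with the same LE samples within array set 1, where the animals also match. They share the LE samples with the comparison of the top fraction, so the values stand side by side without a test of likeness. The log2 change was 8.65 ± 0.28 for GNAT3 in whole buds, 7.10 ± 0.39 for PLCB2, 5.47 ± 0.32 for TAS2R4 and 6.61 ± 0.30 for CALHM3. For TAS1R1 it was 1.10 ± 0.61 in whole buds (adjusted p = 0.201), where it was at 18.4 to 97.8 units. The direct difference between the top fraction and whole buds was 1.85 ± 0.57 for TAS1R1 and did not pass (adjusted p = 0.0938).

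Several of the receptors also set the top fraction apart from the bottom fraction of the same animals. In that fit, which has the animal as a block, 1.68% of 21167 probe sets lay above the bottom fraction by adjusted p and 1.46% below it. Of the 7 bitter receptors named by the annotation and tested, 6 were higher in the top fraction. TAS2R16 was at 90, 124, 46.9 and 93.6 units in the top and 9.64, 10.4, 8.5 and 12 in the bottom fraction (log2 change 3.06 ± 0.28, adjusted p = 0.0235), TAS2R13 and TAS2R10 had changes of 2.92 ± 0.35 and 2.67 ± 0.38, and TAS2R8 one of 2.41 ± 0.29. TAS2R4 was the other one, with a change of 0.92 ± 0.28 (adjusted p = 0.135). TRPM5 and GNA14 were higher in the top fraction too, by 1.53 ± 0.25 and 2.26 ± 0.37, and PKD2L1 by 1.50 ± 0.25. For GNAT3 the change of 1.64 ± 0.31 missed the threshold (adjusted p = 0.0508). With any 1 animal left out, limma called 0 probe sets in that comparison, where 155 to 206 in each direction had an unadjusted p under that limit together with a 5-fold difference. The calls against the bottom fraction therefore rest on all 4 animals.

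Transcription factors of the taste cell lineage stood high in the top fraction. Of 7 named by the annotation 6 were tested and all 6 were higher, with a median log2 change of 6.48, and 4 passed the minimum only through the top fraction. TOX3 was at 1002, 743, 984 and 1370 units against 5.64, 7.97, 7.3 and 6.16 in LE (at least 40-fold higher). FOXA2, a forkhead factor, PROX1, a homeobox factor of type II and III cells, and INSM1, a zinc finger factor of endocrine cells, were at least 42.6-fold, at least 21.9-fold and at least 31.6-fold higher. SOX2, which marks taste progenitors and also basal lingual keratinocytes, was bright in both tissues, at 2363, 2301, 2920 and 3565 and 1266, 1586, 1468 and 1444 units. Its log2 change of 0.93 ± 0.24 (adjusted p = 0.00973) was lost with arrays centred (adjusted p = 0.151). None of the 6 passed against the bottom fraction by adjusted p, nor against whole buds, where 3.16% of tested probe sets were higher and 0.924% lower.

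Notch signalling, in which a ligand on one cell activates a receptor on its neighbour and so sets cell fate, was represented by 16 tested genes of which 7 were higher and 2 lower. Of the 16, 4 passed the minimum only through the top fraction (HEY1, HEYL, HES5 and DLL1) and 1 only through LE, so their direction was fixed. Genes of the HES and HEY families differed among themselves. HEY1 was at 1645, 2012, 2640 and 2136 units in the top fraction and 12.2, 9.98, 9.91 and 8.62 in LE, at least 83.1-fold higher (log2 change 7.69 ± 0.25, adjusted p = 1.69e-07). HEYL, HES6 and HES5 were at least 10.3-fold, at least 18.2-fold and at least 8.2-fold higher. HES1, by contrast, was lower, at 52.2, 76.6, 87 and 61.8 against 210, 189, 340 and 207 units (log2 change -1.75 ± 0.29). Among the receptors NOTCH4 was higher (2.42 ± 0.33) and NOTCH2 lower (-1.70 ± 0.27), and among the ligands DLL1 and JAG2 were higher (3.38 ± 0.33 and 1.82 ± 0.34) while JAG1 had a change of -0.01 ± 0.37 (adjusted p = 0.983).

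Genes of peptide secretion formed another high group. CPE, which trims peptide hormones, was at 7148, 7387, 8672 and 9123 units in the top fraction and 164, 25.5, 7.16 and 7.4 in LE, at least 200-fold higher. Its LE level was highest in replicate 7, which also stood apart in the principal components. SCG5, the chaperone of a prohormone convertase, was at 5297, 5959, 5808 and 5916 units against 11.9, 12.2, 23.2 and 34, at least 213-fold higher, and the convertase gene PCSK2 itself was at least 3.99-fold higher. Of 6 tested members of the granin and prohormone list 5 were higher and 1 lower, with a median log2 change of 2.56, and 4 were higher with centred arrays. In whole buds against the same LE samples 1 of 5 tested members was higher and 1 lower, with a median of 0.79. The secreted granin CHGB was at least 10-fold higher and the calcium-binding SCGN at least 9.38-fold, while the membrane carboxypeptidase CPM was lower, at 18.2, 15.5, 25 and 23.7 against 53.8, 461, 296 and 323 units. SSTR1, a somatostatin receptor, was at least 8.84-fold higher, and GHRH, the growth hormone releasing hormone, 5.09-fold. IGF1R, the receptor of IGF1, was lower than in LE while its ligand was higher. It was at 28.7, 72.3, 48.4 and 29.1 units in the top fraction and 180, 172, 101 and 96.2 in LE (log2 change -1.67 ± 0.38).

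Of 9 tested genes of the vesicle release machinery 8 were higher in the top fraction and none lower, with a median log2 change of 3.98, and 4 of the 9 passed the minimum only through the top fraction. CADPS2, which primes dense core vesicles, was at 4310, 4685, 4747 and 5959 units in the top fraction and 7.9, 89.3, 128 and 51.2 in LE, at least 79.1-fold higher. The calcium sensor SYT1 was at least 69.9-fold higher and the priming factor UNC13B 21.9-fold, the latter from a clear LE level of 158 to 306 units. The vesicle glycoprotein gene SV2B was at least 8.73-fold higher. VAMP2, a vesicle SNARE, had a change of -0.60 ± 0.37 (adjusted p = 0.196). The type III markers named by the annotation did not move as one, with 2 of 4 tested higher and 1 lower. Of these 4, 2 passed the minimum only through the top fraction and 1 only through LE. PDE1C was at least 13.3-fold higher and NCAM1 had a change of -0.56 ± 0.25 (adjusted p = 0.0777). The vesicular monoamine transporter SLC18A2 was lower, at 18.8, 13, 13.9 and 10.7 against 35.5, 61.1, 70.2 and 70 units. With names from the study's list of genes above LE added, 6 of 8 tested type III markers were higher and 1 lower, with a median log2 change of 3.82.

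Neurotrophic genes appeared as ligand and receptor. GFRA3, the receptor of artemin, was at 6073, 7298, 4398 and 6641 units in top samples and 11.2, 15.1, 37.9 and 14.4 in LE, at least 216-fold higher, and ARTN, artemin itself, was at 615, 363, 305 and 300 units against 53.9, 26.3, 23.9 and 34.3, at least 11.4-fold higher. RET, the kinase through which GFRA3 signals, was at 25.1, 19.9, 33.2 and 11.7 units in the top fraction and 8.14, 6.84, 6.78 and 6.43 in LE and was too dim to test. BDNF, which guides gustatory nerve fibres to taste buds, was at 1213, 1109, 731 and 1260 units in the top fraction, at least 23.8-fold higher. Of the 6 tested neurotrophic genes 4 were higher and none lower, and 3 were higher and 1 lower with arrays centred. The fourth, the receptor gene NTRK3, had a change of 1.36 ± 0.48 (adjusted p = 0.0357, and 0.15 with arrays centred). Among neuronal adhesion genes 4 of 7 tested were higher, among them L1CAM (at least 13.9-fold), NRXN3 (at least 12.4-fold) and PTPRD (at least 7.62-fold). L1CAM was also higher in the top than in the bottom fraction, by 2.23 ± 0.27 (adjusted p = 0.0238), and NRXN3 by 1.71 ± 0.28.

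Voltage-gated sodium and potassium channel genes bright enough to test were above LE. Both tested sodium channel genes passed the minimum only through the top samples, which fixed their direction. The voltage-gated sodium channel SCN3A, which supports action potentials, was at 1120, 1223, 1581 and 1889 units in the top fraction and 6, 4.39, 5.58 and 7.02 in LE, at least 56.9-fold higher, and its accessory subunit SCN3B at least 1.81-fold. All 6 tested voltage-gated potassium channel genes were higher, 4 of them tested only through the top fraction. Without the filter 7 of 19 were higher and 3 lower, with a median log2 change of -0.07, and of 9 sodium channel genes 3 were higher and 1 lower, with a median of -0.11. Among the potassium channels tested were KCNH8 at 494, 261, 302 and 459 units (at least 14.6-fold higher), KCNB2 at 251, 321, 279 and 307 (at least 11.5-fold) and KCNQ1 at 242, 323, 208 and 151 (6.16-fold). The subunits of the epithelial sodium channel, which takes up sodium at the surface of epithelia, went the other way. SCNN1A was at 2618, 2288, 2105 and 2137 units in the top fraction and 4090, 4204, 4343 and 4633 in LE (log2 change -0.92 ± 0.21, adjusted p = 0.00568), and SCNN1B and SCNN1G had changes of -2.65 ± 0.30 and -2.81 ± 0.35. These 3 genes had groups that did not overlap, with LE above.

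The enzymes that break down extracellular ATP and adenosine did not move together either. ENTPD3, an ectonucleotidase, was higher, at 2503, 3264, 2624 and 3726 against 477, 429, 404 and 446 units, while ENTPD2, the ectonucleotidase of type I cells, had a change of -0.67 ± 0.30 (adjusted p = 0.0828). NT5E, which makes adenosine from AMP, was lower (-2.18 ± 0.50). ADA, which deaminates adenosine, was at 415, 389, 106 and 189 units in the top fraction and 13581, 14248, 15194 and 13498 in LE by its brighter probe set (59.1-fold lower), and at least 154-fold lower by another. Among type I genes the glutamate transporter SLC1A3 was at least 12.6-fold higher, and GLUL, glutamine synthetase, had a change of -0.35 ± 0.32 (adjusted p = 0.369).

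**Figure D3:**
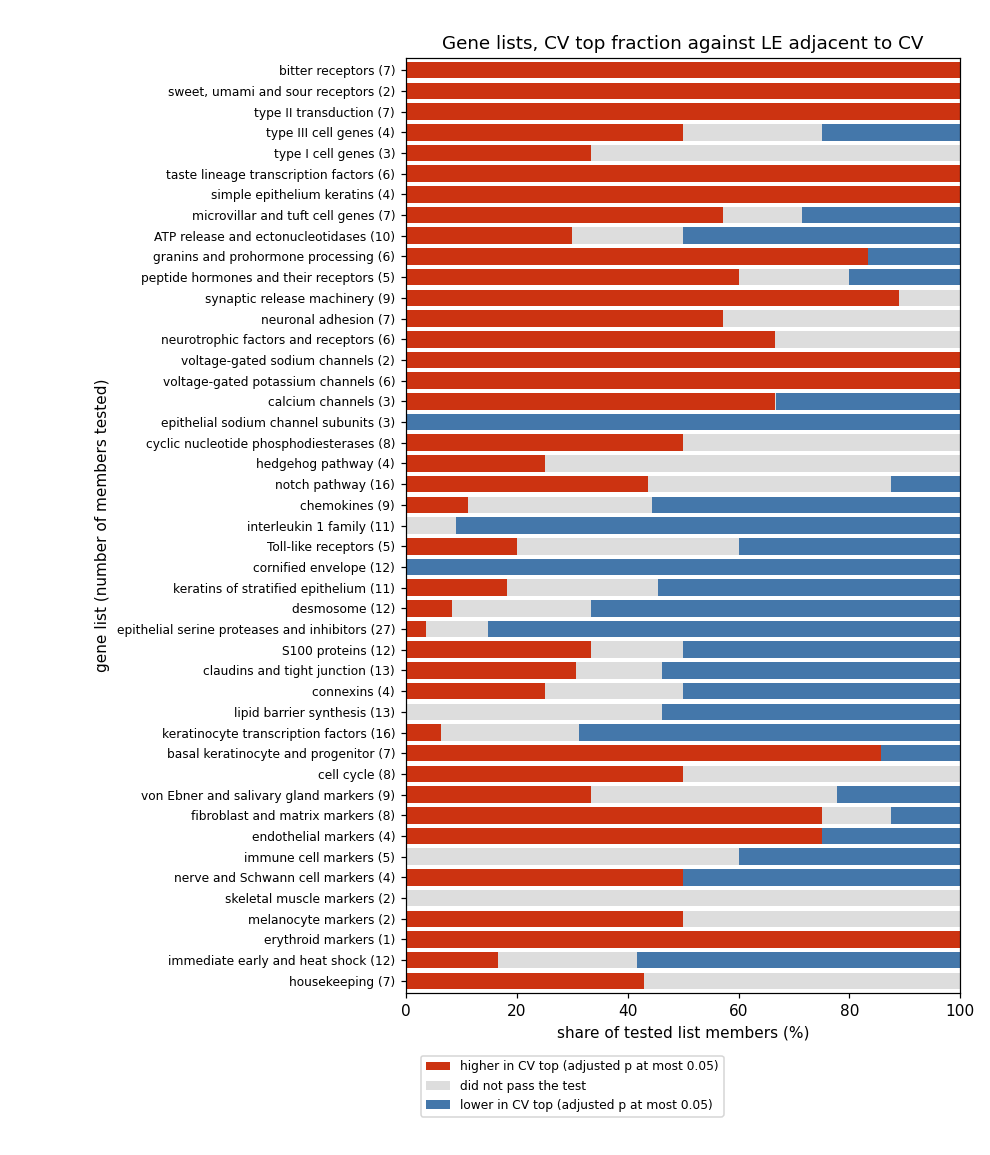
Share of the tested members of each gene list (in percent, number tested in brackets) that were higher, lower or did not pass at an adjusted p of at most 0.05 in the CV top fraction against LE adjacent to CV. The bars of the cornified envelope (12 of 12) and of the epithelial sodium channel (3 of 3) are lower throughout, those of bitter receptors (7), type II transduction (7), lineage transcription factors (6) and voltage-gated potassium channels (6) are among those higher throughout. Of these 7, 5, 4 and 4 passed the minimum of 25 units only through the top samples, which fixed their direction, so that they are not to be read against the background, where over all tested probe sets 33.0% were higher and 22.5% lower. Of the cornified envelope genes 2 passed only through LE, which fixed their direction too.

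Keratins differed between the groups. The simple epithelium keratin KRT20 was at 2729, 3061, 2757 and 1594 units in the top fraction and 8.31, 9.22, 6.26 and 11.1 in LE, at least 98.5-fold higher, and KRT19 was at 8598, 9187, 9075 and 6487 against 32.5, 188, 373 and 29.2 units, 91.4-fold higher. KRT8 was uneven, at 77.2, 273, 267 and 74.7 units in the top fraction and 32.3 to 46.9 in LE (log2 change 1.87 ± 0.48), and the change of KRT7, 1.33 ± 0.38, was lost with arrays centred (adjusted p = 0.0821). In whole buds KRT8 was at 27.3 to 53.7 units (log2 change against LE -0.02 ± 0.29, adjusted p = 0.958), and in the bottom fraction at 44.9 to 306. A dimmer KRT19 probe set was at 120 to 961 units in the top fraction and 62.9 to 753 in the bottom. It was at 13 to 26.3 in whole buds and 6.93 to 19.9 in LE. For both, a difference from LE cannot be told apart from one between array sets or animals. KRT20 and the brighter KRT19 probe set were also above LE in whole buds. KRT4 and KRT13, the pair of keratins of the moist suprabasal epithelium, were the reverse. KRT4 was at 165, 145, 128 and 120 units in the top fraction and 13039, 13638, 11019 and 13793 in LE, 92.6-fold lower, and KRT13 at 422, 327, 351 and 117 against 17369, 16227, 16900 and 17233, 61.7-fold lower. KRT78 was 112-fold lower. Of 11 tested keratins of stratified epithelium 6 were lower and 2 higher, and neither of those higher, KRT10 (0.78 ± 0.28) and KRT75 (1.92 ± 0.65), passed with arrays centred. KRT3 and KRT16 stayed bright in both tissues, KRT3 at 2066 to 5716 units in the top fraction and 4893 to 7649 in LE.

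The cornified envelope, the shell of cross-linked protein made by a dying keratinocyte, was lower in the top fraction for 12 of 12 tested genes, with a median log2 change of -5.79. Of the 12, 2 passed the minimum only through LE, cornulin and involucrin, so their direction was fixed. Cornulin (CRNN) had the largest decrease of any named gene: it was at 9.91, 13, 10.8 and 15.5 units in top samples and 12774, 12170, 11537 and 12785 in LE, at least 492-fold lower (log2 change -9.99 ± 0.24, adjusted p = 9.18e-08). Involucrin (IVL) was at least 47.9-fold lower, sciellin (SCEL) at least 161-fold and cornifelin (CNFN) 50.9-fold. Loricrin (LOR) was at least 143-fold lower and uneven in the top fraction, at 6.46, 19.5, 102 and 18.5 units. SPRR3, at 20347, 21998, 21648 and 21675 units in LE, was still at 229, 494, 310 and 84.6 units in the top fraction. SPRR1B had the smallest change of the 12, from 7543 to 11054 units in LE to 1936 to 6208 in the top fraction (log2 change -1.31 ± 0.36). The enzymes that cross-link the envelope, TGM1 and TGM3, were at least 45-fold and 55.8-fold lower. TGM3 had 1 high value in the top fraction, in sample 3, of 56.7, 61.8, 401 and 29.1 units, and loricrin and desmoglein DSG1 were also highest there.

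Other large decreases lay outside these lists. MAL, a proteolipid of apical membrane transport, was at 28.1, 19.1, 16.2 and 11.9 units in the top fraction and 9868, 9076, 8772 and 8793 in LE, at least 354-fold lower. LYPD2, of the Ly6 family, and GSG1 were at least 201-fold and at least 180-fold lower. CRISP3, a secreted cysteine-rich protein, was at 196, 37.3, 16.8 and 17.6 units in the top fraction and 9240, 8513, 7290 and 7386 in LE, at least 174-fold lower, with top sample 1 above the other 3. GABRP, a subunit of GABA receptors found in epithelia, and MUC1, a membrane mucin, were at least 141-fold and at least 134-fold lower.

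Serine proteases and their inhibitors, which control shedding at the surface, were lower for 23 of 27 tested genes and higher for 1, with a median log2 change of -5.04. Of the 27, 6 passed the minimum only through LE, TMPRSS11E and KLK6 among them, so their direction was fixed. The membrane protease TMPRSS11E was at 9.13, 9.25, 4.55 and 4.17 units in the top fraction and 3219, 4012, 2945 and 2041 in LE, at least 119-fold lower. The kallikrein KLK6 was at 11, 9.29, 14.2 and 13.7 against 3749, 2705, 3698 and 6529 units, at least 158-fold lower, and the protease PRSS27 at least 126-fold. Among inhibitors SPINK7 was at least 199-fold lower, SERPINB2 at least 83.1-fold and cystatin A (CSTA) 46-fold. The single gene that was higher was ST14, which encodes matriptase, at 597, 936, 1052 and 487 against 158, 302, 304 and 356 units (log2 change 1.45 ± 0.36, adjusted p = 0.00798).

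Many genes of this group lie side by side in the macaque genome, in families that arose by duplication, which was looked at after their values were known. In the RefSeq annotation of the cynomolgus assembly T2T-MFA8v1.1, 8 protein-coding genes lie from the first to the last of 6 kallikrein genes, and of these 6 were tested here and 6 were lower. The stretch from S100A8 and S100A9 to cornulin, the epidermal differentiation complex, holds 42 protein-coding genes, of which 8 were tested and 8 were lower (median log2 change -5.69). Of 10 genes in the stretch around interleukin 1, 7 were tested, 6 were lower, and IL37 had a change of 2.55 ± 1.13 (adjusted p = 0.0822). These runs were laid out around genes already seen to be low, and apart from those genes they hold at most 1 tested gene each, so the counts largely restate the choice and are not evidence about position.

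Interleukin 1 family genes, which encode cytokines and antagonists stored by surface epithelia, were lower for 10 of 11 tested members and higher for none, with a median log2 change of -6.72, and 6 of the 11 passed the minimum only through LE. IL36A was at 9.44, 12.3, 14 and 9.51 units in the top fraction and 6624, 7419, 4072 and 6769 in LE, at least 243-fold lower. IL18 was at least 52.5-fold lower and IL1A at least 51-fold. The antagonist IL1RN was at 105, 23.2, 43.2 and 50.2 units in the top fraction against 9725, 8328, 6465 and 7194 in LE, at least 160-fold lower, and the antagonist IL36RN at least 59.5-fold. IL1B was uneven in both tissues, with 412, 1085, 279 and 63 units in LE and 7.72, 54.9, 5.96 and 3.85 in the top fraction (log2 change -4.91 ± 0.99). Of 9 tested chemokines named by the annotation 5 were lower and 1 higher. With names from the study's list of genes above LE added, 5 of 12 were lower and 3 higher. The probe set that the study names CXCL14, described above, was at least 372-fold higher. CXCL17, a mucosal chemokine, was at least 112-fold lower, and CXCL16 and CCL21 9.19-fold and 7.65-fold, of which CCL21 did not pass with all 10 LE samples (adjusted p = 0.113). CCL27, the 1 that was higher by the names of the annotation, lost its call with centred arrays (log2 change 1.07 ± 0.31, adjusted p = 0.157 when centred). Among Toll-like receptors TLR1 was higher, at 324, 158, 263 and 501 against 15, 28, 94.5 and 34.2 units, and TLR5, the flagellin receptor, lower (-2.39 ± 0.52).

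**Figure D4:**
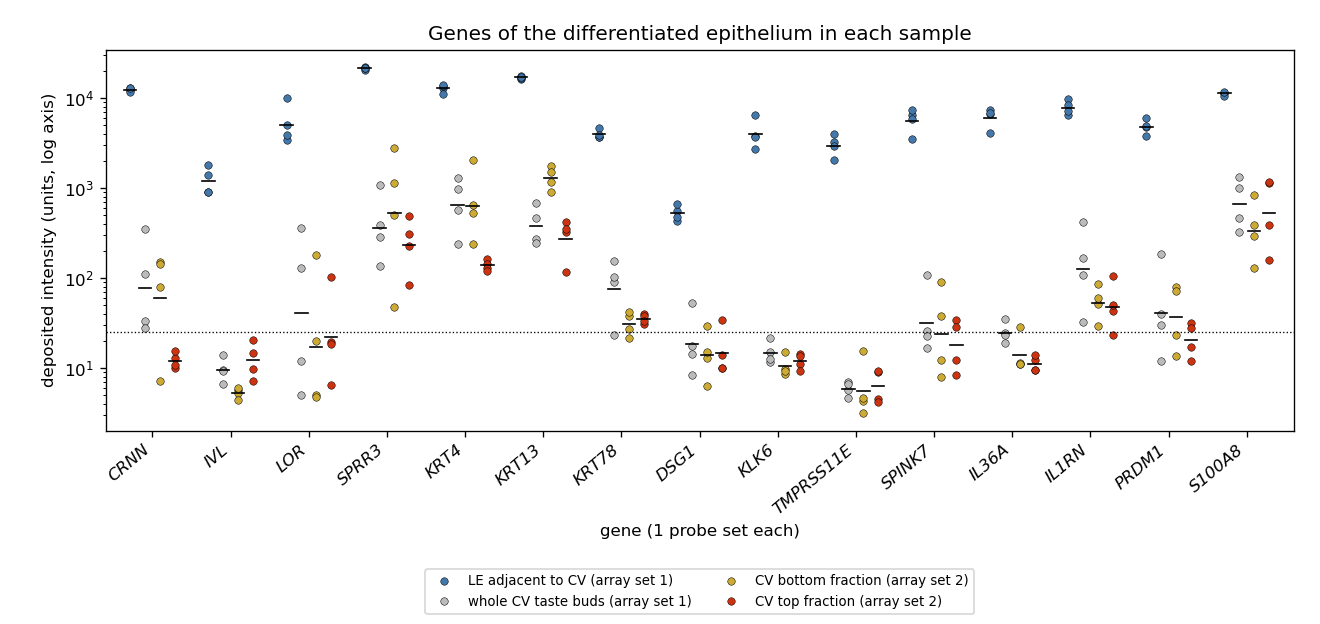
Deposited intensity (log axis, units) of 15 genes of differentiated lingual epithelium in each sample of LE adjacent to CV papillae, whole CV taste buds and both fractions. Points are samples, short lines geometric means and the dotted line 25 units; LE lies above every top sample in each gene, and S100A8 and SPRR3 stay well above 25 units in the top fraction.

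Cell contacts changed in parts. Of 12 tested desmosome genes, which hold neighbouring keratinocytes together, 8 were lower and 1 higher. Of the 12, DSG2 and DSG3 passed the minimum only through LE, so their direction was fixed. PKP1, a desmosomal plaque protein, was at least 45.4-fold lower and DSG1 at least 19.5-fold, whereas desmoplakin (DSP), at 2646 to 3511 units in the top fraction and 2759 to 3712 in LE, had a change of -0.16 ± 0.23 (adjusted p = 0.584). Tight junction genes split: CLDN10 was at least 29.8-fold lower (log2 change -5.13 ± 0.69, but -0.42 with an adjusted p of 0.869 once all 10 LE samples entered the fit), CLDN1 at least 5.76-fold lower and TJP1 2.62-fold lower, and CLDN5 was at 501, 411, 1023 and 439 units in the top fraction, at least 21.6-fold higher. The connexin GJB6 was 24.3-fold lower. S100 proteins, small calcium-binding proteins, also split, with 4 of 12 tested higher and 6 lower. S100A8 and S100A9, the subunits of the antimicrobial calprotectin, had changes of -4.40 ± 0.60 and -4.85 ± 0.67, and S100A9 ran from 133 units in top sample 4 to 1806 in top sample 3. S100A6 and S100A2 were higher, by 14-fold and 14.4-fold.

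Transcription factors of the keratinocyte were lower for 11 of 16 tested and higher for 1. PRDM1, a transcriptional repressor of the late keratinocyte, was at 11.9, 31.8, 17 and 27.8 units in the top fraction and 3826, 5946, 4711 and 4907 in LE, at least 176-fold lower. GRHL1, OVOL1 and ZNF750, which drive barrier genes, were 23.1-fold, 19.6-fold and 13.4-fold lower. KLF4 and KLF5 were bright in both tissues and had changes of -0.26 ± 0.28 (adjusted p = 0.462) and -0.42 ± 0.29 (adjusted p = 0.243). TP63, the factor of the basal layer, was lower than in LE (-2.26 ± 0.64, adjusted p = 0.0146) and lower than in the bottom fraction (-3.16 ± 0.49, adjusted p = 0.0348). In the top fraction it ran from 88.6 units in sample 1 to 788 in sample 3.

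Of 7 tested genes of basal keratinocytes and progenitors 6 were higher than in LE. Of the 7, LGR5 and ITGB1 passed the minimum only through the top fraction, so their direction was fixed. Integrin ITGA3 was at 764, 928, 544 and 467 units in the top fraction and 26.8, 14.1, 35 and 16.7 in LE, at least 23.5-fold higher, and ITGA6 and ITGB4 were at least 14.4-fold and 14.9-fold higher. LGR5, a receptor of epithelial stem cells, was at 348, 125, 236 and 517 units in the top fraction and at least 10.8-fold higher. Among cell cycle genes 4 of 8 tested were higher than in LE and none lower, and 2 were higher when all 10 LE samples of the series entered the fit. PCNA was at least 13-fold higher, at 585, 837, 832 and 740 against 8.46, 38, 129 and 85.2 units, and CCNA2 5.04-fold. Against the bottom fraction the same list went the other way, with 9 of 15 tested genes lower in the top and none higher. CENPF, a mitotic protein, was at 37.3, 30.9, 69.1 and 23.1 units in the top and 247, 238, 726 and 372 in the bottom fraction (log2 change -3.27 ± 0.30, adjusted p = 0.0235), and its change against LE was -0.19 ± 0.83 (adjusted p = 0.855).

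Beyond these lists, 108 probe sets (0.51%) were called higher in the top than in the bottom fraction and 135 (0.638%) were called lower. Those named here were also called against LE. ST8SIA1, which makes gangliosides, was at 248, 468, 298 and 398 units in the top fraction, 12.3, 41.5, 23.2 and 9.49 in the bottom fraction and 8.91, 9.27, 10.7 and 13.4 in LE, a change of 4.22 ± 0.37 against the bottom fraction. CLCA1, of the family of chloride channel regulators, had a change of 3.72 ± 0.30, MS4A8, a membrane protein gene, of 3.35 ± 0.44, and COL4A4, a chain of basement membrane collagen, of 3.24 ± 0.51. No bottom sample of CLCA1 reached 25 units and every top sample did, so its direction was fixed by the filter. TLL2, a metalloprotease, was at least 16.8-fold higher than LE and had a change of 3.38 ± 0.42 against the bottom fraction, and the potassium channel KCNA2 one of 3.21 ± 0.45. TMEM45B, a membrane protein, was above the bottom fraction (3.15 ± 0.45) and yet below LE, at 164, 175, 174 and 166 units in the top fraction, 49.8, 10.9, 10.2 and 23.9 in the bottom fraction and 1459, 1120, 552 and 1010 in LE. Below the bottom fraction but above LE were matrix genes and some others. POSTN, periostin, was at 93.7, 46, 30.5 and 26.8 units in the top and 236, 767, 524 and 501 in the bottom fraction, and COL15A1, a basement membrane collagen, had a change of -3.88 ± 0.37. DDX10, an RNA helicase, EFEMP1, a matrix glycoprotein, and NRN1, which encodes the membrane-anchored protein neuritin, had changes of -4.07 ± 0.35, -2.93 ± 0.33 and -2.84 ± 0.27 against the bottom fraction, and 2.90 ± 0.33, 2.77 ± 0.87 and 2.58 ± 0.41 against LE. The changes against LE did not all hold: with low values raised to 25 POSTN (adjusted p = 0.0988) and DDX10 (0.0825) did not pass, with all 10 LE samples COL15A1 (0.0652) and DDX10 (0.169) did not, and EFEMP1 did not without top sample 1 (0.0605) or 4 (0.0603) or without LE sample 7 (0.0528) or 9 (0.051). UHRF1, a factor that maintains DNA methylation in dividing cells, was below both, at 8.31, 43.6, 26.2 and 10.3 units in the top fraction, 168, 144, 154 and 293 in the bottom fraction and 259, 386, 270 and 191 in LE. IL1R2, the decoy receptor of interleukin 1, was also below both, by -3.27 ± 0.50 against the bottom fraction and -6.19 ± 0.72 against LE.

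Against whole CV taste buds, which came from other animals and the other array set, 154 of 20677 tested probe sets were called higher in the top fraction (0.745%) and 47 lower (0.227%). Without top sample 2 these counts were 25 and 4, without top sample 3 41 and 15, and without top sample 1 68 and 20, so single libraries decide them. USP14, a proteasome-associated deubiquitinase, was at 895, 689, 769 and 229 units in the top and 2982, 3344, 1546 and 3535 in the bottom fraction, but at 22.4, 9.33, 21.2 and 18.3 in whole buds and 17.4, 13.6, 12.8 and 22 in LE, a change of 5.09 ± 0.49 between the top fraction and whole buds. The fatty acid transporter CD36 was at 907 to 2126 units in the bottom and 321 to 491 in the top fraction against 6.76 to 28.3 in whole buds, and CAV1, caveolin, at 687 to 2287 and 134 to 347 against 6.6 to 20.7. Beta globin HBB was at 224 to 286 units in the bottom and 69.5 to 155 in the top fractions and at 5.57 to 8.5 in whole buds. MEGF10, a receptor of the engulfment of cell debris, EPB41L3, which links membrane to cytoskeleton, and SOS2, an activator of Ras, were higher than whole buds by 4.19 ± 0.59, 3.79 ± 0.45 and 3.60 ± 0.42 on the log2 scale. In this comparison USP14, CAV1, HBB and EPB41L3 reached 25 units only in the top fraction, which fixed their direction. A whole bud holds both fractions, and USP14, CD36, CAV1 and HBB were high in both fractions of array set 2 and low in whole buds and LE of array set 1, so their difference from LE cannot be told apart from one between array sets or animals. Over all 3095 probe sets called higher than LE, 182 (5.88%) had whole buds below every sample of both fractions, and 5.19% of all tested probe sets did so.

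The reverse also occurred. HSPBAP1, which encodes a partner of a small heat shock protein, was at 33.4, 39.3, 19.3 and 41.8 units in the top fraction and 15.7, 37.3, 16.1 and 39.6 in the bottom fraction, but at 558, 583, 522 and 563 in whole buds and 1698, 2340, 1863 and 1363 in LE. Of the 1644 probe sets called lower than LE, 54 (3.28%) had whole buds above every sample of both fractions, against 2.41% of all tested. KRT4 was lower in the top fraction than in whole buds, with a change of -2.22 ± 0.50 (adjusted p = 0.0455). SERPINE2, a protease inhibitor, RESF1 and TAOK1, a kinase, had changes of -2.81 ± 0.42, -3.03 ± 0.58 and -2.22 ± 0.37 against whole buds. KCNH7, a potassium channel, was below whole buds by one probe set (-2.31 ± 0.32), at 199, 160, 182 and 140 units in the top fraction, 1005, 462, 1037 and 1009 in whole buds and 6.86, 7.02, 4.46 and 5.19 in LE.

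**Figure D5:**
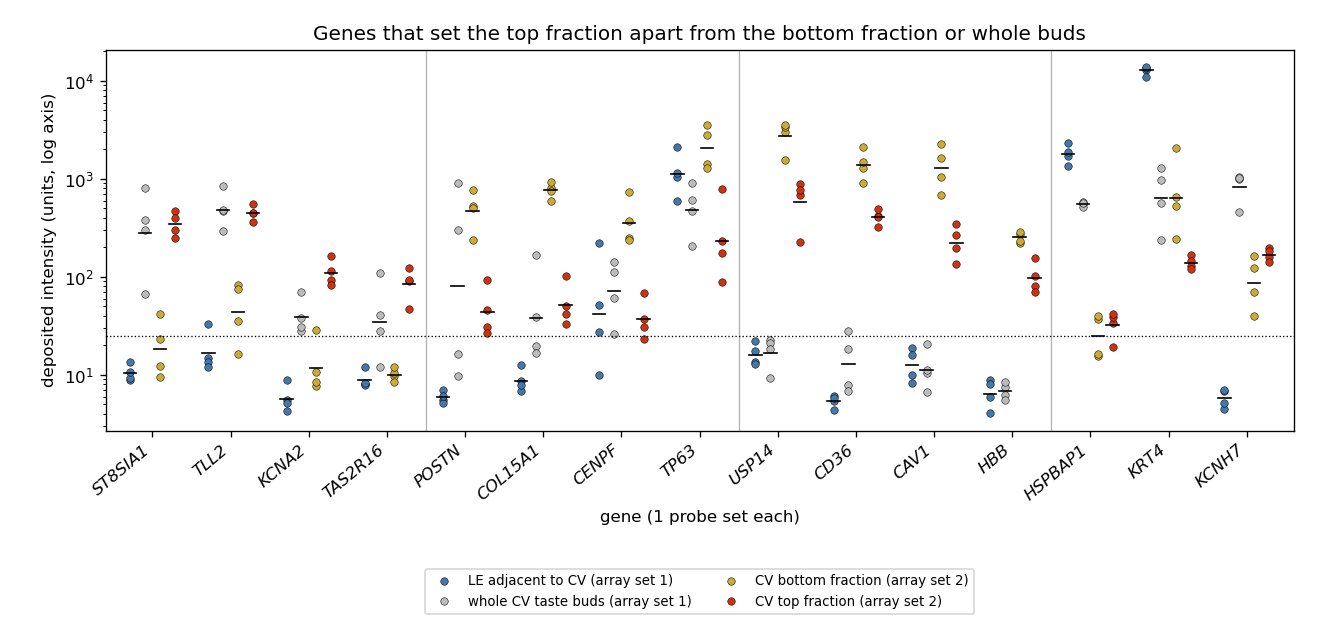
Deposited intensity (log axis, units) of genes that differed between the top fraction and the bottom fraction (higher in the top, then lower in the top, separated by grey lines) or whole CV taste buds (higher, then lower in the top), in each sample of 4 groups. Points are samples, short lines geometric means and the dotted line 25 units; USP14, CD36, CAV1 and HBB are high in both fractions and low in whole buds and LE.

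Markers of other cells were present in both tissues at differing levels, and their part in the results was not tested. In such bulk samples fewer cells of a type and less RNA per cell cannot be told apart. Of 8 tested fibroblast and matrix markers 6 were higher and 1 lower than in LE, with the summed level of the 11 markers on the array at 939 to 2279 units in the top fraction, 978 to 2217 in LE and 7866 to 9690 in the bottom fraction. DPT, dermatopontin, was at 103, 106, 88.4 and 61.6 units in the top fraction and 14.5, 16.9, 9 and 11.4 in LE, and COL3A1, THY1 and TNC were too dim to test. Of the 8 tested, 3 passed the minimum only through the top fraction, DPT among them, which fixed their direction. With all 10 LE samples of the series in the fit, 3 fibroblast markers were higher instead of 6. Salivary and von Ebner gland markers were higher for 3 and lower for 2 of 9 tested, with summed levels of 5449 to 9312 units in the top fraction and 3320 to 5578 in LE. BPIFB1, a gland protein, was at 507, 378, 493 and 82.2 units in the top fraction and 98.5, 80.6, 43.2 and 43.3 in LE, and LCN1, the von Ebner gland lipocalin, at 1056, 796, 1105 and 67.3 and 470, 139, 72.8 and 42.6 (adjusted p = 0.108). Both were far dimmer in top sample 4 than in the other 3 top samples. Mucin MUC7, the water channel AQP5 and CA6 were too dim to test. AZGP1, which glands and taste cells may both make, was 32.7-fold higher.

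Immune cell markers were not higher for any of 5 tested genes, and 2 were lower. CD68 of macrophages was 16.9-fold lower, at 91.6, 168, 67.6 and 63.2 units in the top fraction and 2262, 1366, 1167 and 1501 in LE, and CD1A of Langerhans cells was at 6.67, 5.09, 4.57 and 5.26 against 48.2, 155, 312 and 132. Summed over 11 markers the level was 309 to 1333 units in the top fraction and 2029 to 2625 in LE. Endothelial markers summed to 792 to 1377 units in the top fraction and 204 to 439 in LE, mostly through CLDN5, and CDH5, KDR, EMCN, TEK and ERG were too dim to test. Nerve markers split, with UCHL1 and GAP43 higher (at least 15.2-fold and at least 14.4-fold) and the myelin genes PMP22 and MBP lower (27-fold and at least 2.51-fold). Neither of 2 tested skeletal muscle markers passed, and of 2 tested melanocyte markers MLANA was higher (3.13 ± 0.82).

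Immediate early and heat shock genes, which respond to handling, were lower for 7 of 12 tested and higher for 2. JUNB was at 229, 222, 281 and 156 units in the top fraction and 1090, 764, 688 and 845 in LE, and IER2 at 617, 722, 1159 and 479 against 3738, 3864, 3720 and 3947. The chaperone gene HSPA8 was higher, at 8321, 9674, 10259 and 10438 against 4927, 5386, 5641 and 5263 units, but not with arrays centred (adjusted p = 0.182). Of 7 tested housekeeping genes 3 were higher and none lower, and 2 higher and 1 lower with arrays centred. In whole buds against the same LE samples 2 of 7 were higher and 3 lower, with a median log2 change of -1.10. GAPDH and ACTB had changes of 0.26 ± 0.37 (adjusted p = 0.566) and -0.34 ± 0.26 (adjusted p = 0.296), the latter passing as lower with arrays centred. SDHA of the mitochondrial respiratory chain was at least 30.3-fold higher, at 1443, 1684, 1660 and 1335 units in the top fraction and 24.2, 29.2, 90.5 and 96.5 in LE, and 4.00 ± 0.61 on the log2 scale in whole buds against LE.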

How the data were processed

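Each sample was hybridised to 1 Affymetrix array of the rhesus macaque genome. The authors normalized all 28 arrays together by GC-RMA in GeneSpring GX, and the deposited values are linear intensities of 52024 probe sets. Log2 intensities of the top fraction (n = 4) and of LE beside CV papillae (n = 4) were compared unpaired with limma 3.58.1 in R 4.3.3, after checks on simulated data. Tested probe sets had at least 25 units in 4 or more of the 8 samples; Benjamini-Hochberg adjustment covered all of them. Called probe sets had an adjusted p of at most 0.05 and at least a 5-fold change. The top and bottom fractions, and whole buds and LE, were compared with the animal as a block, since the labels give the same animals. The number of arrays limits the precision.

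Gene symbols came from the study's own gene list or, otherwise, the annotation of the array (24956 probe sets with 1 symbol, 361 with several, 26707 with none). In lists, a gene was represented by its brightest annotated probe set. Named were the 15 genes with the largest change in each direction, up to 5 members of each list with the largest change, all taste receptor and type II genes, and up to 8 genes that differed most from the bottom fraction and from whole buds in each direction. The 15 were taken only from called probe sets whose groups did not overlap. Other list members were named after their values were seen. The samples, lists and tests were chosen with earlier results of these data known. Alternatives were no filter, centred arrays, raised low values, an intensity trend, sex as a covariate, a random animal block, all LE samples, the methods' t-test (unpaired here) and leaving out each sample. Fold changes and p values in the study's supplementary lists were not used.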

Additional observations from a re-analysis of the deposited data

Results flagged for a closer look

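In 49 of 508 sets of 4 values examined, 1 sample lay so far from the other 3 that its gap exceeded Dixon's 95% critical value as a share of the range; chance alone gives this in about 1 in 20 sets. The values were compared on the linear scale, and many lie under 25 units, near the background.

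Top sample 1 stood apart as the highest of its group for CRISP3 (196 units), IL1R2 (63.4 units), IL36RN (223 units), KDR (11.8 units), KRT18 (25.1 units) and TAS2R60 (11.4 units). Top sample 1 stood apart as the lowest of its group for KLF5 (1785 units) and NOTCH2 (520 units). Top sample 2 stood apart as the highest of its group for IL1B (54.9 units). Top sample 2 stood apart as the lowest of its group for PCSK2 (34.7 units). Top sample 3 stood apart as the highest of its group for CLDN5 (1023 units), DSG1 (33.9 units), GSTO1 (4911 units), LOR (102 units) and TGM3 (401 units). Top sample 3 stood apart as the lowest of its group for AVIL (4719 units). Top sample 4 stood apart as the highest of its group for MS4A8 (982 units), SCN3B (104 units) and TAS2R42 (80.0 units). Top sample 4 stood apart as the lowest of its group for ECRG4 (2262 units) and for the dimmer probe set of MMP7 (372 units).

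LE sample 7 stood apart as the highest of its group for CA6 (16.2 units), COL4A4 (6.16 units), CPE (164 units), ECRG4 (21 units), ITGB4 (225 units), KRT16 (3661 units), NRXN3 (30.7 units), SCNN1B (733 units), TAS2R16 (12.1 units) and TAS2R20 (8.44 units). LE sample 8 stood apart as the highest of its group for AVIL (13.8 units), CHGB (40.4 units), IL37 (224 units) and RESF1 (1139 units). LE sample 9 stood apart as the highest of its group for GFRA3 (37.9 units), HES1 (340 units), KRT75 (54.5 units), MLANA (140 units) and PDE5A (47.9 units). LE sample 9 stood apart as the lowest of its group for CLDN5 (12 units). LE sample 10 stood apart as the highest of its group for CDH5 (226 units), EMCN (12.8 units), KRT7 (3362 units), MEGF10 (47.9 units) and TLL2 (33 units).

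Of measures of the whole array, top sample 4 had the lowest median of the group (14 units) and the lowest share of probe sets at 25 units or more (39.9%), although the top samples spanned only 14 to 14.3 units and 39.9% to 40.4%. LE sample 7 stood apart on the second principal component of the 8 samples (129.2). Without LE sample 7, 2856 probe sets were called higher and 1739 lower in the top fraction.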

How the results depend on the processing

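No paired analysis was possible for the top fraction against LE because the groups share no animal and no replicate number; with the animal as a random replicate block over all 28 samples 3074 probe sets were called higher and 1634 lower. Without the filter the counts were 3251 and 1830, with values under 25 raised to 25 they were 2142 and 1411, and with sex as a covariate 3270 and 1679. The methods' t-test, run unpaired because the animals differ, gave 3065 and 1634 unadjusted and 2971 and 1613 after Benjamini-Hochberg. With all 10 LE samples 1065 were lower. Leaving out 1 sample gave 2856 to 3404 higher and 1595 to 1739 lower. Between the top and bottom fractions 108 were higher and 135 lower, 106 and 136 with no replicate block, and 0 higher and 0 lower by limma with any 1 animal left out (155 to 206 in each direction at an unadjusted p of at most 0.05 and 5-fold). Between the top fraction and whole buds, centred arrays gave 102 higher and 74 lower, raised values 68 higher, and leaving out 1 sample 25 to 211 higher and 4 to 62 lower.

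Of 221 tested probe sets of the genes named in the text, 187 kept their side of the threshold under every alternative, 25 lost it under at least 1, 9 gained it under at least 1, and no value that passed changed sign. With all 10 LE samples 15 lost their call, among them CLDN10 (adjusted p = 0.869), RESF1 (0.669), SCNN1A (0.0687), IL1B (0.063), S100A2 (0.0684), JAG2 (0.0577), BOC (0.394), CCL21 (0.113), TAOK1 (0.164) and CCNA2 (0.0961). With values under 25 raised to 25, DDX10 (adjusted p = 0.0825), POSTN (0.0988), SCN3B (0.0789), KRT75 (0.0578), NTRK3 (0.0676) and TAS2R42 (0.0524) did not pass. Single samples decided 5 calls. KRT10 lost its call without any 1 of 6 samples (adjusted p up to 0.0995, without LE 8), as did KRT75 (up to 0.0877, without top sample 1), EFEMP1 without any 1 of 4 samples (up to 0.0605, without top sample 1), NTRK3 without any 1 of 5 (up to 0.0963, without top sample 3), and CCL27 without top sample 2 (0.0514). Of genes that did not pass, IL37 passed without top sample 3 (0.00634) or LE 8 (0.0301), LCN1 without top sample 4 (0.0108) or LE 7 (0.0391), ENTPD2 without LE 8 (0.0163), GLUL without LE 7 (0.0344) and SMO without LE 9 (0.00507). With arrays centred GLUL, ENTPD2, NCAM1, KLF5, KRT3 and ACTB passed as lower. The causes were not tested. The 4 arrays a group limit the precision, values near 25 units lie near the background, and no result here separates the tissues from the array sets and animals.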

Other observations

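Some gene groups were not described above. Enzymes that build the lipids of the epidermal barrier were lower in the top fraction for 7 of 13 tested genes and higher for none, with a median log2 change of -2.03, beside 0.30 over all tested probe sets. CERS3, a ceramide synthase, was at 252, 182, 356 and 140 units in the top fraction and 4114, 4282, 3887 and 4294 in LE (-4.24 ± 0.31), and UGCG, which makes glucosylceramide, at 186, 207, 224 and 213 against 2611, 3053, 1979 and 2235 (-3.56 ± 0.24). The elongase gene ELOVL7 had a change of 0.57 ± 0.27 (adjusted p = 0.104).

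Phosphodiesterases, which break down cyclic nucleotides, were higher for 4 of 8 tested genes and lower for none. PDE5A, specific for cyclic GMP, was at 317, 402, 381 and 463 units in the top fraction and 7.92, 4.91, 47.9 and 3.43 in LE (5.44 ± 0.72), with top values all above LE. Of 3 tested calcium channel genes the accessory subunits CACNA2D2 (3.84 ± 0.41) and CACNB3 (2.87 ± 0.47) were higher and CACNB1 (-1.06 ± 0.24) lower. Among connexins GJB1 was higher (2.53 ± 0.49) while GJB5 and GJB6 were lower. By the names of the annotation, 1 of 4 tested genes of the hedgehog pathway, which maintains taste buds, was higher. It was the co-receptor BOC (2.52 ± 0.61), which did not pass with all 10 LE samples (0.99, adjusted p = 0.394). The receptor PTCH1 had a change of -0.05 ± 0.33 (adjusted p = 0.905) and SMO one of 1.00 ± 0.61 (adjusted p = 0.189). With names from the study's list added, 5 of 7 tested hedgehog genes were higher and none lower, with a median log2 change of 2.58. The study took those names from genes it had found above LE.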
